A study of Mus musculus with 10 samples.

Results

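Heat shock proteins and their DnaJ partners are the chaperones that fold, refold and hold other proteins. The members described here are all protein-coding mouse genes whose symbols place them in the Hsp70, Hsp110, Hsp90, Hsp60 and Hsp10 families, the small heat shock proteins or the DnaJ A, B and C families, and there were 72 of them among 78298 genes in the table. They were grouped by compartment: 46 in the cytosol, 14 in the endoplasmic reticulum, 10 in the mitochondrion and 2 not placed. The cytosol class holds every placed member not listed under the endoplasmic reticulum or mitochondrion, so some may work elsewhere in the cell. Transcripts were measured by bulk RNA sequencing of whole hearts from female mice on a C57BL/6J background, 5 labelled wild type and 5 labelled p38δ germline knockout. The kinase p38δ answers to cell stress and is the product of Mapk13. Every mouse, in both groups, had received 1 intraperitoneal dose of doxorubicin at 30 mg/kg, and hearts were taken 72 h later. Doxorubicin is an anthracycline chemotherapy drug that damages heart muscle. No untreated heart is among the samples, so an effect of the drug on chaperones cannot be read from these data. The labels do not give the age of the mice or how the knockout allele was made.

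Hsp70 proteins bind and release exposed hydrophobic stretches of a client protein in a cycle driven by ATP. DnaJ proteins deliver clients and trigger ATP hydrolysis, Hsp110 proteins exchange the nucleotide, and Hsp90 acts later on partly folded clients such as kinases and receptors. Small heat shock proteins hold unfolding proteins without ATP and are abundant in heart and skeletal muscle. In stressed cells heat shock factor 1 raises the cytosolic set, and the unfolded protein response raises the set of the endoplasmic reticulum.

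Both forms of control are written in promoters, and 4 sequences are shown because they hold the perfect motif of one or the other and belong to members described below. In the 300 bases before the annotated start, the heat shock element, read as GAA, TTC and GAA with 2 bases of any kind between them, was sought on both strands without mismatches, and it stood in 2 of 72 member promoters (2.78%) and in 105 of 21723 protein-coding promoters (0.483%). The 2 were Hspd1 and Hspe1, which face away from each other and share the same stretch with 2 overlapping matches, so 1 stretch is counted for both. The promoters of Hspa1a, Hspa1b, Hsph1, Dnajb1 and Hsp90aa1 held no perfect match. Imperfect elements were not sought, so their promoters may still hold some. The endoplasmic reticulum stress element, CCAAT and CCACG with 9 bases of any kind between them, stood in 3 of 72 member promoters (4.17%) and in 25 of all (0.115%). Motif letters are in capitals, each sequence reads 5′ to 3′ on the strand given, and coordinates are GRCm39. Exons of alternative transcripts overlap these stretches. A match is a description of letters and not evidence of binding.
Hspd1-Hspe1, chr1:55127184-55127290, plus strand, the 107 bases between the 2 starts: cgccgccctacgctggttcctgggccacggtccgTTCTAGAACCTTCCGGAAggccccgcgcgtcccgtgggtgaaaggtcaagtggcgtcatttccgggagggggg
Hspa5, chr2:34661954-34662103, plus strand: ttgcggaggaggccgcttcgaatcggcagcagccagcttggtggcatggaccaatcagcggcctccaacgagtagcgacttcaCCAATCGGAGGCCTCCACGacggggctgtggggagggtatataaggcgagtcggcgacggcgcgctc
Hsp90b1, chr10:86541379-86541528, minus strand: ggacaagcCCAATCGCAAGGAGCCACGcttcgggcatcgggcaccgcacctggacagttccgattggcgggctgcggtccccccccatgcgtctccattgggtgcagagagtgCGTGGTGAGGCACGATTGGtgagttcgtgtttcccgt
Dnajc3, chr14:119175195-119175344, plus strand: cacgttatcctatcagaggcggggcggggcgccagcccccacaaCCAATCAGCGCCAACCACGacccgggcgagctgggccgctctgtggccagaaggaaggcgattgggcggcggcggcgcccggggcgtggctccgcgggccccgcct

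Libraries are called WT1 to WT5 and KO1 to KO5 after their genotype labels, whatever their content. Totals ran from 21403189 to 40627138 counts, and WT1 stood apart. Its airway markers summed to 1961 CPM (a count scaled to library size with TMM factors), against 162 in WT3 and 0.826 to 2.36 in the other 8 libraries. Its skeletal muscle markers summed to 550 CPM against 1.35 to 10.9 in the other 9. Its cardiomyocyte markers summed to 18458 CPM, the lowest sum of the 10. Atrial markers summed to 1408 CPM in WT1, 316 in WT2 and 34.9 to 129 in the rest, so WT2 also stood apart here. Fat markers summed to 329 CPM in WT1 against 24.0 to 42.4 in the rest, and macrophage markers to 300 against 58.2 to 102. How much atrium each sample held was not tested. KO4 had the highest sum of cardiomyocyte markers, 55785 CPM, with Myh6 at 24290 CPM and Actc1 at 4990. Not every marker was highest there. Tnnt2 was 7349 CPM in KO4 and 9603 in WT4, and Pln was 7027 in KO4 and 7134 in KO3. Mapk13 had 292, 5, 2, 1 and 4 counts in the libraries labelled wild type and 12, 10, 10, 15 and 9 in those labelled knockout. Outside WT1 the libraries labelled knockout thus held more Mapk13 counts than those labelled wild type, which goes against the labels, and the edgeR log2 fold change was −1.76 with all libraries (adjusted p = 0.78) and 2.13 without WT1 (adjusted p = 0.0443). Which part of Mapk13 the allele removes is not in the labels, so groups are named here by label only.

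None of the chaperones passed the test between the labelled genotypes. Of 72 members, 65 had enough counts to be tested, and 0 of 65 had an adjusted p under 0.05 by edgeR's quasi-likelihood test with Benjamini-Hochberg adjustment over 16700 genes. Among all tested genes 59 passed (0.353%), 40 of them higher in knockout (0.24%) and 19 lower (0.114%), a share at which fewer than 1 of 65 would be called. DESeq2 called 0 of 65 members and 118 of 16434 genes (0.718%), and limma voom called 0 of 65 and 56 of 16700 (0.335%). At an unadjusted p under 0.05, edgeR gave 2 members (3.08%), both lower in knockout, against 6.86% of all genes (3.77% lower), DESeq2 gave 3 (4.62%) against 7.33%, and limma voom gave 2 (3.08%) against 6.04%. The lowest adjusted p of any member was 0.714 by edgeR, 0.608 by DESeq2 and 0.816 by limma voom.

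The estimates were small as well as uncalled. The median absolute log2 fold change was 0.08 over the 65 tested members and 0.12 over all tested genes, and 62 of 65 members lay within 0.3 of 0. The 95% interval lay wholly inside a 1.5-fold change in either direction for 60 of 65 members (92.3%) and for 59.1% of all genes. Intervals narrow as counts rise, and members were not matched with other genes for level. What level contributes to these gaps was not tested. Those whose intervals reached further included Hspa1a, Hspa1b, Dnajb13 and Dnajc6, all of low counts. The direction was split, with 34 of 65 members (52.3%) and 53.4% of all genes below 0 in knockout minus wild type. Scaled by library totals alone, 56 of 65 members (86.2%) and 75% of all genes were below 0. The signs were not stable: 16 of 65 members changed sign without WT1 and 27 without WT1 and KO4, among them Hspb7, Hspb8, Hspa9, Hspa1a and Hsp90b1, and none passed in either case. Scaling by library totals moved the median of all genes from −0.01 to −0.12 and that of the members from −0.01 to −0.11.

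Levels between genes are compared per kb of the canonical transcript. The most abundant members were Hspb7, a small heat shock protein of striated muscle, at 442 ± 64.9 CPM per kb (SD, n = 10), Hspa8, the constitutive Hsp70, at 420 ± 38.6, and Hsp90ab1, the constitutive Hsp90, at 345 ± 26.7. Hspb7 and Hspa8 differed by less than either SD. The mitochondrial Hsp70 Hspa9 followed at 164 ± 29.3 and the Hsp60 gene Hspd1 at 149 ± 14.3. Of the endoplasmic reticulum, Hsp90b1 (GRP94) stood at 117 ± 10.6 and Hspa5 (BiP) at 81.5 ± 12.1. The stress-inducible Hsp70 genes Hspa1a and Hspa1b were near the bottom, at 0.89 ± 0.318 and 0.872 ± 0.622. Taken per kb of all exons of the gene, the length applied first, the same 3 genes led, with Hsp90ab1 ahead of Hspa8.

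**Figure D1:**
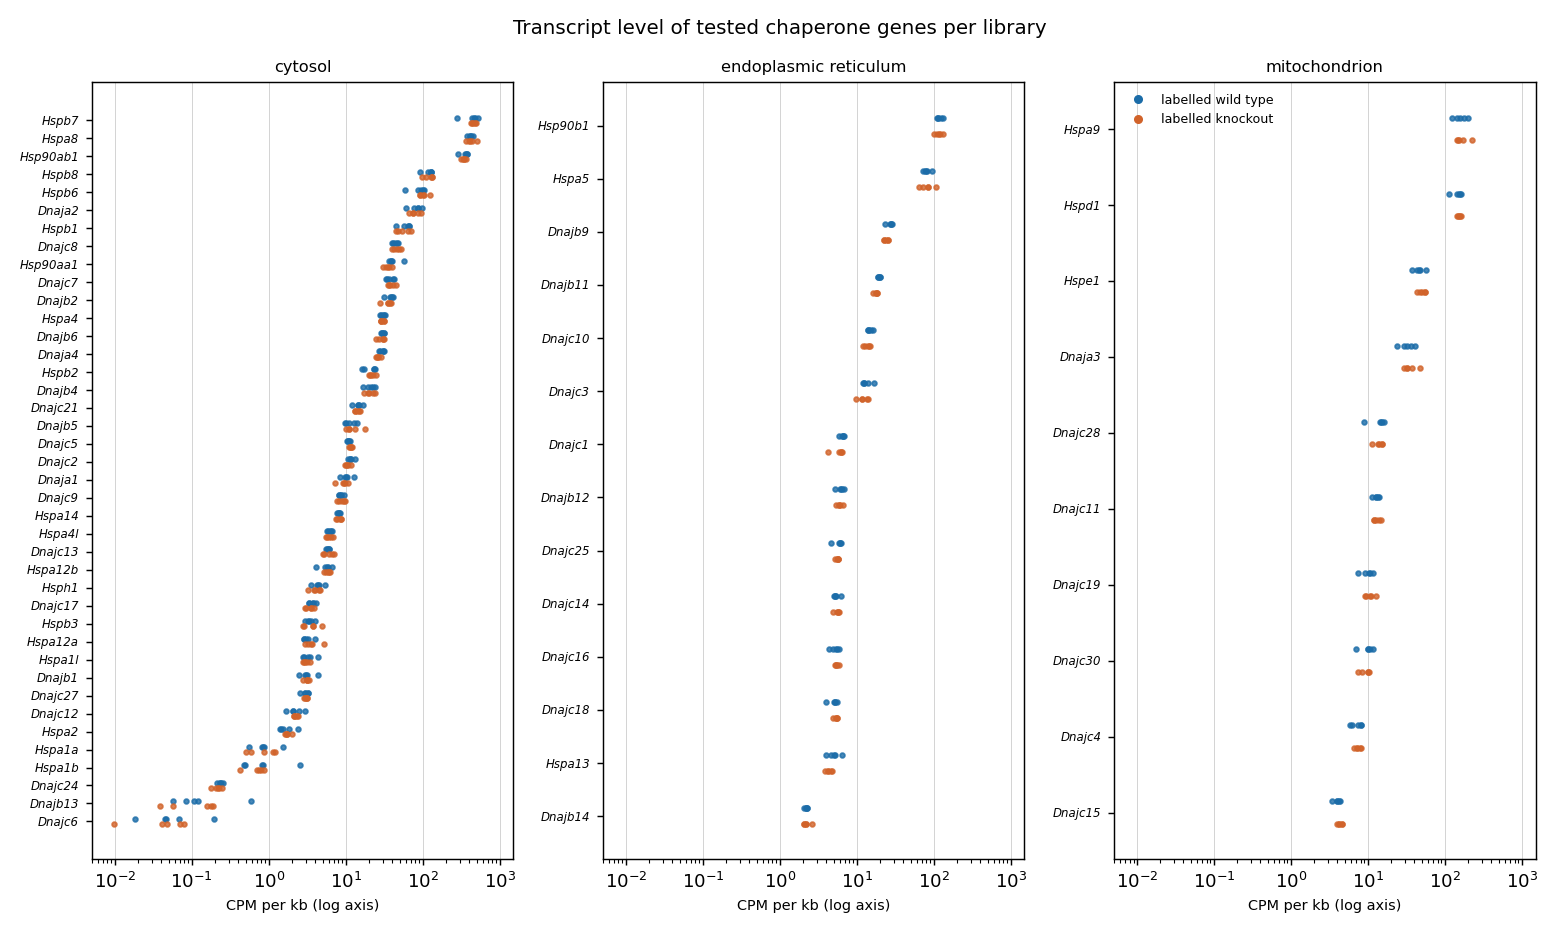
CPM per kb of canonical transcript on a log axis for the tested members of each compartment, 1 point per library (5 labelled wild type, 5 labelled knockout). Mean levels span from 0.062 for Dnajc6 to 442 for Hspb7, and the 2 groups of points lie over each other in nearly every row.

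Among cytosolic Hsp70 genes, Hspa8 measured 892, 1015, 990, 990 and 1090 CPM in the libraries labelled wild type and 1200, 968, 996, 878 and 1038 in those labelled knockout. The groups overlapped throughout, with a log2 fold change of 0.03 ± 0.12 (SE). Hspa1b measured 7.23, 2.35, 1.37, 1.35 and 2.26 CPM in wild type and 2.20, 2.46, 1.95, 1.17 and 2.10 in knockout. Its highest value was in WT1. The log2 fold change was −0.57 with all libraries and 0.09 without that library, and neither passed. Hspa1a and Hspa1b are near-identical copies whose reads are divided by estimation, and their sum gave −0.33 ± 0.35 (SE), edgeR adjusted p = 0.861. Hspa8 exceeded the sum of Hspa1a and Hspa1b by a median of 271 times per kb of canonical transcript and 74.9 times per kb of all exons, so the size of this gap depends on the length used. Together with Hspa1l and Hsp90ab1, these 2 genes are the members on chromosome 17, which also holds Mapk13, and none of the 4 passed.

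Of the Hsp90 pair, Hsp90aa1, the inducible form, measured 199, 137, 140, 135 and 129 CPM in wild type and 130, 117, 123, 107 and 142 in knockout. WT1 was again the highest, and the log2 fold change of −0.26 ± 0.13 (SE) became −0.12 without it. With TMM scaling Hsp90ab1 was lowest in that library, at 779 CPM against 954, 980, 1004 and 1008 in the other libraries labelled wild type. Those labelled knockout measured 984, 925, 940, 852 and 907. This low value rests on the TMM factor of WT1, as by library totals alone Hsp90ab1 was highest in WT1. The ratio of Hsp90ab1 to Hsp90aa1 per kb, which no scaling changes, was 5.11 in WT1. It was 9.09 to 10.2 in the other libraries labelled wild type and 8.33 to 10.4 in those labelled knockout. The Hsp110 genes Hspa4, Hspa4l and Hsph1, nucleotide exchange factors for Hsp70, had log2 fold changes of −0.02, −0.02 and −0.12.

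Of the small heat shock proteins, Hspb7 measured 764, 1308, 1432, 1273 and 1191 CPM in wild type and 1315, 1342, 1210, 1257 and 1168 in knockout. Apart from WT1 the values lay between 1168 and 1432. Hspb6 measured 178, 264, 316, 290 and 307 against 318, 276, 306, 373 and 280, and Hspb8, which works with the cochaperone Bag3 in clearing damaged muscle proteins, 197, 250, 273, 274 and 272 against 269, 236, 281, 279 and 208. All 3 were lowest in WT1 with TMM scaling. By library totals alone Hspb7 and Hspb6 were still lowest there and Hspb8 was not. Of 6 tested small heat shock genes 5 were above 0 with all libraries and 2 without that library. The part that other tissue in WT1 had in these values was not tested. Hspb2 lies opposite Cryab, which had 707 CPM against 22.1 for Hspb2, so reads of the 2 may not be separable where they overlap.

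Among cytosolic DnaJ genes the lowest unadjusted p belonged to Dnaja4, a class A partner of Hsp70. It measured 86.8, 86.2, 94.8, 95.8 and 98.0 CPM in wild type and 82.0, 83.9, 80.3, 90.3 and 78.9 in knockout. Of the knockout values 4 lay below all of wild type and 1 lay within them. The log2 fold change was −0.15 ± 0.07 (SE), with an edgeR adjusted p = 0.714. Dnaja2, the most abundant DnaJ gene at 80.7 ± 12.2 CPM per kb (SD, n = 10), had a log2 fold change of −0.04, and Dnajb1, the main heat-inducible class B gene, had −0.05 with all libraries and 0.10 without WT1, where it measured 15.6 CPM against 8.71 to 11.8 in the other 9.

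In the endoplasmic reticulum 9 of 14 genes were below 0, with a median of −0.04, and none passed. Without WT1 the count was 8 and the median −0.06, and without WT1 and KO4 they were 9 and −0.02. Dnajb9 (ERdj4), which restrains the stress sensor IRE1, measured 57.0, 65.8, 68.3, 67.7 and 70.0 CPM in wild type and 56.1, 62.6, 61.5, 55.7 and 58.1 in knockout. The groups overlapped, as WT1 lay within the knockout values. Its log2 fold change was −0.16 ± 0.07 (SE), edgeR adjusted p = 0.714, and without WT1 −0.20, adjusted p = 0.472. Dnajb11 (ERdj3), a BiP partner that binds nascent proteins, measured 37.3, 39.4, 37.5, 40.4 and 38.8 CPM against 37.0, 35.9, 36.8, 35.8 and 32.5. It was the 1 member of 65 (1.54%) whose groups did not overlap, against 1.78% of all genes and 0.898% lower in knockout, and its log2 fold change of −0.12 ± 0.06 (SE) had an adjusted p of 0.724 by edgeR. Hspa5 measured 395, 406, 379, 362 and 470 against 414, 526, 357, 414 and 313, with the highest and lowest of the 10 both in knockout. Hsp90b1 and Dnajc3, whose promoters are printed above with that of Hspa5, had log2 fold changes of −0.03 and −0.15.

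**Figure D2:**
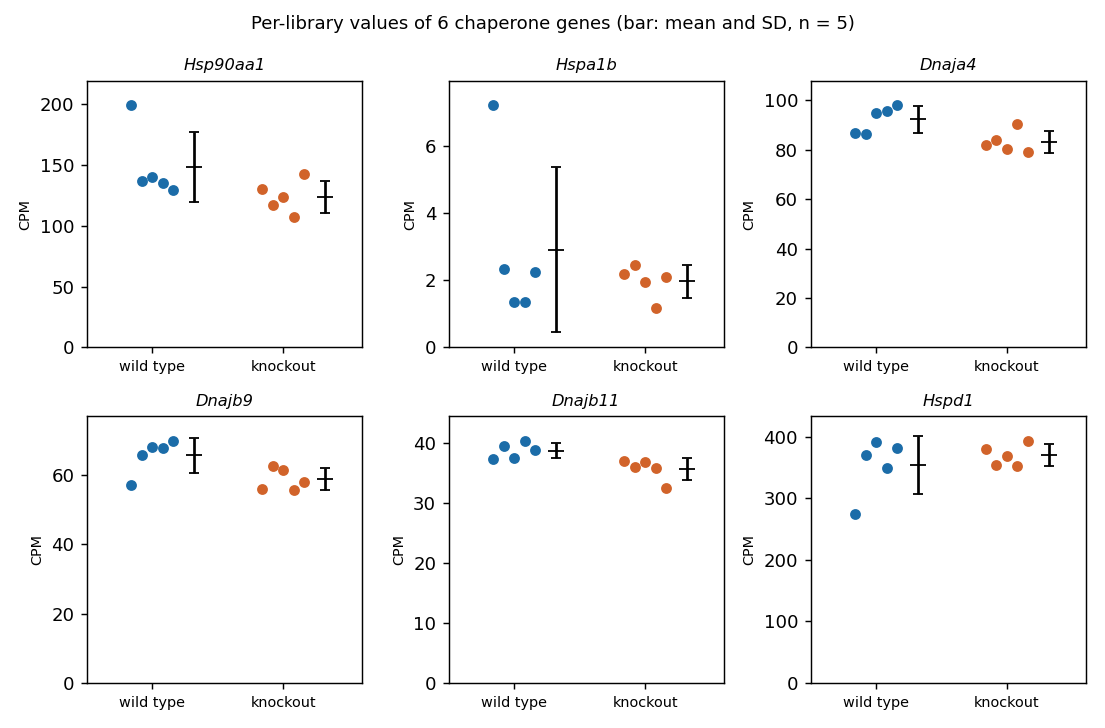
CPM per library for 6 members, with the mean and SD of each group (n = 5) beside the points. WT1 is the high point for Hsp90aa1 (199) and Hspa1b (7.23) and the low point for Hspd1 (274), and only for Dnajb11 do the groups not overlap.

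Of the mitochondrial genes 9 of 10 were above 0 with a median of 0.07, and 5 of 10 were above 0 without WT1, with a median of 0.01. Without WT1 and KO4 the direction turned, with 6 of 10 below 0 and a median of −0.02. Hspd1 measured 274, 370, 392, 349 and 382 CPM in wild type and 381, 353, 369, 352 and 394 in knockout. Its partner Hspe1 (Hsp10), which caps the Hsp60 ring, measured 29.3, 33.1, 36.2, 43.2 and 35.9 against 42.2, 36.6, 39.4, 43.1 and 33.3. Both were lowest in WT1 with TMM scaling, though not by library totals alone. Their log2 fold changes were 0.06 ± 0.11 and 0.13 ± 0.11 (SE). The 2 genes overlap on opposite strands as annotated, with 362 CPM for Hspd1 and 37.2 for Hspe1. Their reads may not be separable where they overlap. Although they share the promoter stretch printed above, their levels over the 10 hearts had Pearson r = 0.40 and Spearman rho = −0.25 (permutation adjusted p = 0.32 and 0.588 over 6 pairs), and r = −0.44 without the 2 hearts farthest from the median of Hspd1. The sign turned in other settings as well, to r = −0.57 without WT1 (permutation adjusted p = 0.347) and r = −0.67 with library totals only (permutation adjusted p = 0.0497).

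The heat-inducible list of 13 members had 9 below 0 and a median of −0.05, with 9 and −0.03 without WT1, and 4 and 0.03 without WT1 and KO4. The list inducible by endoplasmic reticulum stress had 6 of 7 below 0 and a median of −0.12, with 5 and −0.06 without WT1, and 5 and −0.02 without both. Of 58 other folding genes, 57 were tested, 0 passed and 35 were below 0, with 41 below 0 without WT1 and 42 without both. Of all tested genes 53.4% were below 0, with 8266 of 16829 without WT1 and 8249 of 16494 without both. The 8 subunits of the CCT chaperonin, the ring that folds actin and tubulin, were all below 0 with a median of −0.07, and stayed below 0 without WT1 (−0.08) and without both (−0.09), though none passed. Of 13 other folding genes of the endoplasmic reticulum 12 were below 0 with a median of −0.12, with 9 and −0.04 without WT1, and 7 and −0.01 without both. Heat shock factor 1 (Hsf1) had a log2 fold change of 0.06, and Bag3 had 0.04, which was −0.07 without WT1.

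The members' lowest and highest values gathered in a few hearts. The lowest of 10 values stood in WT1 for 27 of the 65 tested members (41.5%, against 22.5% of all tested genes) and in KO4 for 18 (27.7% against 17.8%). The highest stood in WT4 for 15 (23.1% against 11.7%), in WT1 for 13 (20% against 27.8%), in KO1 for 10 (15.4% against 9.91%) and in KO4 for 9 (13.8% against 16.6%). The median coefficient of variation of members in wild type was 12.2% with WT1 and 7.21% without it, against 16.9% and 11.5% over all tested genes.

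**Figure D3:**
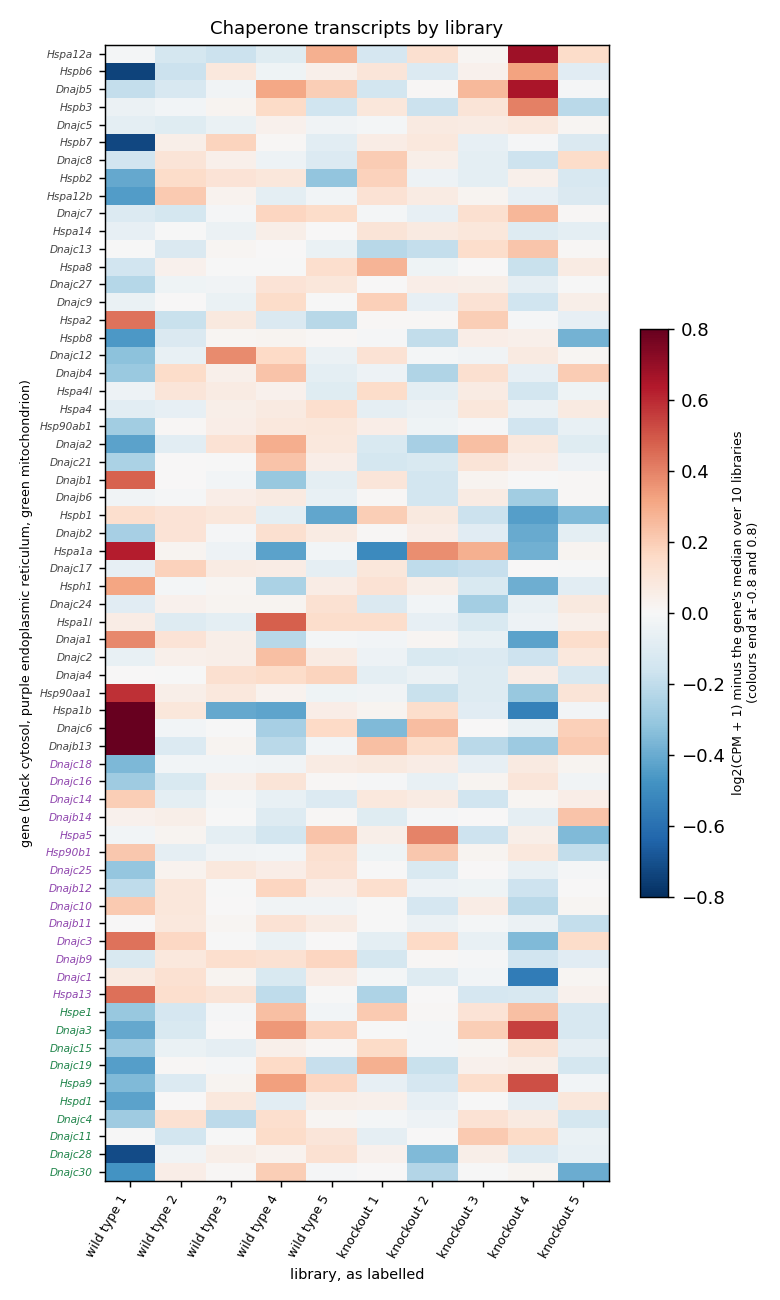
Log2(CPM + 1) of the tested members of the 3 compartments minus its median over 10 libraries, in columns by library and in rows by compartment. With TMM scaling WT1 is the most strongly coloured column and holds the lowest value of 27 members, and KO4 of 18.

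The member that varied most closely with cardiomyocyte marker level was Hspa9, the mitochondrial Hsp70 that pulls proteins into the matrix. It measured 414, 492, 538, 666 and 596 CPM in wild type and 505, 482, 584, 757 and 521 in knockout. Over the 10 hearts its log2(CPM + 1) correlated with the log2 summed CPM of 8 cardiomyocyte markers (Myh6, Myl2, Myl3, Tnnt2, Tnni3, Actc1, Ryr2 and Pln) with Pearson r = 0.994 and Spearman rho = 0.988 (permutation p = 1e-05 for each, the smallest that 100000 permutations can give, adjusted p = 0.00397 and 0.00927 over 16692 genes). It ranked 1 of 16692 genes by r, and without the 2 hearts farthest from the median r was 0.984 (adjusted p = 0.0957). This relation was sought after values had been seen, and the marker level and the gene share each library's scaling. The marker level is a plain sum of CPM, so markers of high level weigh most in it. Myh6 ran from 5021 CPM in KO1 to 24290 in KO4, while Tnnt2 was 7349 CPM in KO4 and 9603 in WT4. Whether Hspa9 follows each marker alone was not tested. In bulk tissue fewer cells of a type and less RNA per cell cannot be told apart. Dnaja3, the DnaJ partner of Hspa9, had r = 0.963 and rho = 0.879 (permutation adjusted p = 0.00856 and 0.0519), and r = 0.877 without the 2 hearts.

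In all, 5 of 65 members (7.69%) correlated positively at an adjusted p under 0.05, against 4.72% of all genes, and 4 (6.15%) negatively, against 2.86%. By Spearman rho 2 of 65 members (3.08%) passed, Hspa9 and Dnajc7, against 2.89% of all genes, and none of the 4 negative ones did (permutation adjusted p from 0.0818 to 0.243). The other positive ones were Dnajb5, Dnajc7 and Dnajc16, and the negative ones were Dnaja1, Hsph1, Dnajc3 and Dnajb13. Without the 2 farthest hearts 0 members and 0 of all genes passed with the 8 left. Even Hspa9, at r = 0.984, then had a permutation adjusted p of 0.0957. With so few hearts this cannot show whether the counts above rest on those 2 hearts. At an unadjusted permutation p under 0.05 the 8 hearts gave 11 of 65 members (16.9%), against 16.4% of all genes. Hspd1, also of the matrix, had r = 0.393 and rho = 0.0303 (permutation adjusted p = 0.471 and 0.984). With 5 hearts a group, no correlation was computed within the labelled groups.

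**Figure D4:**
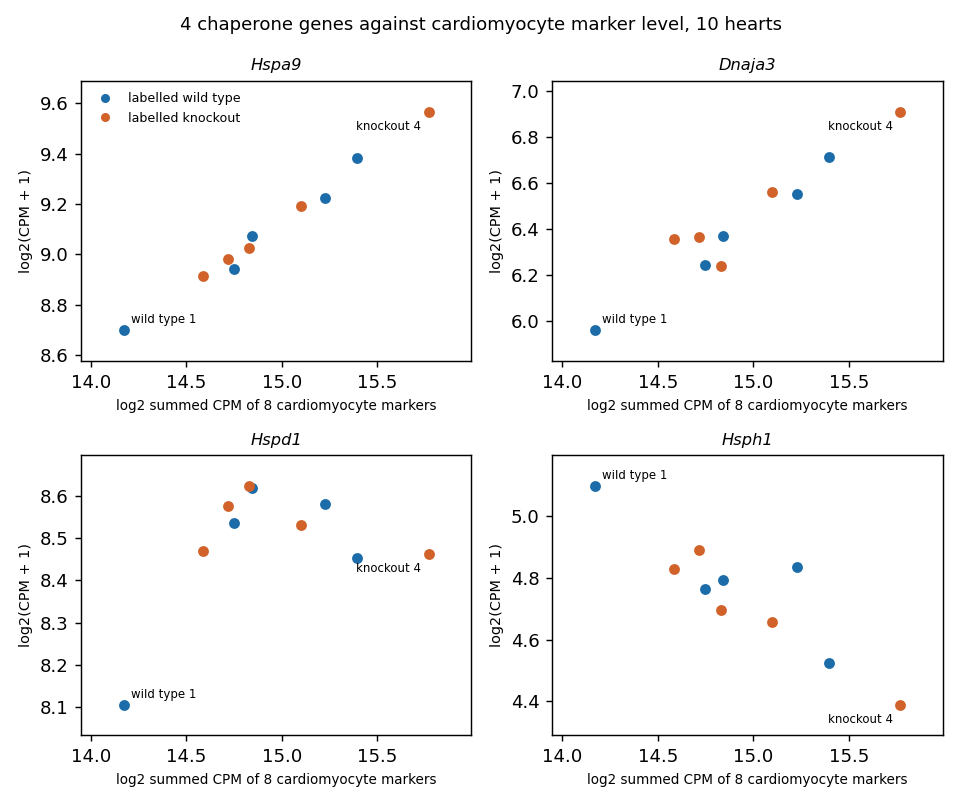
Log2(CPM + 1) of 4 members against the log2 summed CPM of 8 cardiomyocyte markers, 1 point per heart, coloured by labelled genotype. Hspa9 (r = 0.994) and Dnaja3 (r = 0.963) lie along a rising line and Hsph1 (r = −0.901) along a falling one, while Hspd1 (r = 0.393) does not.

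Of 6 pairs of known partners, 0 had an adjusted p under 0.05 over the 10 hearts. Hspa5 with Hsp90b1 had r = 0.75 and rho = 0.53 (permutation adjusted p = 0.0744 and 0.472), and r = 0.36 without KO2 and KO5, the 2 hearts farthest from the median of Hspa5. This pair passed in other settings, with r = 0.88 without WT1 (permutation adjusted p = 0.0197), 0.75 without KO4 (0.0418), 0.89 without both (0.034) and 0.82 with library totals only (0.00384). Hsp90aa1 with Hsph1 had r = 0.71, Hspb8 with Bag3 0.65, Dnajb1 with Hsph1 0.64 and Hspa5 with Dnajb11 0.28, with rho from 0.0545 to 0.467 (permutation adjusted p from 0.0745 to 0.425 for r and from 0.472 to 0.892 for rho). All 4 were nearer 0 without the 2 farthest hearts, at −0.23, 0.21, −0.12 and −0.02 in that order.

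The 7 members not tested had few reads. Dnajb8 had 0 counts in every library and Dnajc5g 1 count in all. The sums over 10 libraries were 30 for Dnajb3, 19 for Dnajc5b, 14 for Hspb9, 12 for Dnajb7 and 8 for Dnajc22.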

How the data were processed

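The authors deposited 1 expected count per gene and library. Alignment used STAR 2.5.2 on GRCm39, per the labels' protocols, and the submitters' processing notes list RSEM 1.3.0. Annotation release, strand setting and trimming were not given in the sources used here. The expected counts in the authors' table were whole numbers. Symbols, positions and lengths came from GENCODE release M39, which held 78168 of 78298 identifiers. Nothing says that libraries are from separate litters or days, so a p-value reflects only the spread among these samples, which may be technical.

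The whole table was fitted with edgeR 4.0.16 (quasi-likelihood, TMM, minimum count 10, robust, R 4.3.3) with Benjamini-Hochberg adjustment at 0.05, and again with DESeq2 1.42.0 and limma voom 3.58.1. Standard errors were taken as the absolute log2 fold change over √F. Copies were sought with BLAST 2.17.0 (95% identity over at least 200 bases and 50% of the shorter transcript). Counts of 32 members may include reads of an overlapping gene of at least 1 CPM. The procedure was tested on simulated data. An item that the rule reached is counted but not reported here.

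The members, lists and rules were chosen with earlier results of these data known. Named genes were any member called, on chromosome 17, without overlap between groups or in a partner pair, the 3 of highest level in each family and smallest p in each compartment, and the 2 of smallest p of each list of other folding genes. The level in that rule was CPM per kb of all exons. After those levels had been seen, the length used for printed levels was changed to the canonical transcript, because exons of long alternative transcripts lengthen some genes by up to 4.64 times. The rule kept the first length, and 24 of 26 genes it picks are the same under both. Genes described beyond the rule, the marker correlations and the values of lists without a library were also chosen after values were seen.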

Additional observations from a re-analysis of the deposited data

Results flagged for a closer look

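In groups of 5 libraries, a value was set apart where its gap to the nearest other exceeded Dixon's 95% limit of 0.71 of the group's range. Of 68 groups examined, 2 for each of 34 named members, 4 held such a value. Chance sets apart about 1 independent group in 20, and this number is near that share. The groups share the same 10 libraries, though, and some members were picked by these same values. The number therefore cannot show whether chance gave these values. WT1 held 3 of them: Hsp90aa1 at 199 CPM (the other 4 at 129 to 140), Hspa1b at 7.23 CPM (1.35 to 2.35) and Hsp90ab1 at 779 CPM (954 to 1008). KO5 held the fourth, Dnajb11 at 32.5 CPM (35.8 to 37.0).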

How the results depend on the processing

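No chaperone passed the test under any of 19 alternatives (other scalings, DESeq2, limma voom, other filters, copies summed, libraries left out), and the lowest adjusted p of any member was 0.381, for Dnaja4 without WT1 and KO4. Of 893 values of named genes under these alternatives 0 passed and 60 changed sign. All tested genes called numbered 59 and, by DESeq2, 118, with 47 to 75 when 1 library was left out. Mapk13 changed sign by limma voom (0.65, adjusted p = 0.919) and without WT1 (2.13), with a range of −2.06 to 2.13 when 1 library was left out, and it was not among the genes kept by a CPM of at least 1 in 5 libraries. The number of partner pairs past the threshold was 0, but 4 with library totals only, of which Hspd1 with Hspe1 was negative and Hspa5 with Hsp90b1, Dnajb1 with Hsph1 and Hsp90aa1 with Hsph1 were positive, 0 to 3 when 1 library was left out (Hspa5 with Hsp90b1 without WT1, that pair, Dnajb1 with Hsph1, and Hspb8 with Bag3 without KO4) and 1, Hspa5 with Hsp90b1, without both. The cause was not tested. Per kb of all exons in place of the canonical transcript, Hsp90ab1 over Hsp90aa1 was 6.40 in place of 9.80 and Hspd1 over Hspe1 4.54 in place of 3.04. No paired analysis was possible because replicate numbers were given in accession order and pair no samples. Low counts, 866 for Hspa1a, 854 for Hspa1b, 192 for Dnajb13 and 178 for Dnajc6 over the 10 libraries, limit these genes. Their high values in WT1 limit them as well.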
